A study of Mus musculus with 6 samples.

Results

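The genes described here are 37 chromatin modifiers and remodellers of the mouse, and the measurement is the open chromatin called at and around them in activated CD8+ T cells. They fall into 5 classes: Polycomb and H3K27 demethylase genes (Ezh1, Ezh2, Eed, Suz12, Kdm6a, Kdm6b), acetylation genes (Hdac1, Hdac2, Hdac3, Hdac4, Hdac5, Hdac7, Hdac9, Sirt1, Ep300, Crebbp, Kat2a, Kat2b), DNA methylation genes (Dnmt1, Dnmt3a, Dnmt3b, Tet1, Tet2, Tet3), other histone methylation genes (Kdm5b, Setd2, Suv39h1, Kmt2a, Kmt2d) and SWI/SNF or CHD remodeller genes (Arid1a, Arid1b, Arid2, Smarca2, Smarca4, Smarcb1, Chd3, Chd4). A peak belonged to one of them if, among 21887 protein-coding RefSeq genes, its gene body was the nearest to the peak's summit, inside it or within 100 kb. All 37 symbols matched, and the peaks of the 6 libraries merged into 705 regions at these genes, of 134174 regions in all. The list was set by gene function, but it was chosen with earlier results of these data known.

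The libraries are ATAC-seq libraries, in which a transposase cuts open DNA and adds sequencing adapters to it, from mouse spleen T cells. In both groups the CD8+ T cells were purified by depleting the rest, stimulated through CD3 (antibody at 5 µg/mL) and CD28 (antibody at 1 µg/mL), and kept for 48 h below a porous insert with lung adenocarcinoma cells resistant to PD-1 blockade. The tumour cells were either the control (Res-ctrl, 3 biological replicates) or carried a short hairpin RNA knockdown of the fatty acid binding protein gene Fabp7 (Res-shFabp7, 3 biological replicates), and the comparison asks whether the knockdown beside them went with a difference in T cell open chromatin. Since the hairpin acted in the tumour cells only, these libraries cannot check it; whether those cells were a pool or 1 clone, and the strain and age of the mice, the labels do not say.

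Polycomb repressive complex 2 writes H3K27 methylation through Ezh1 or Ezh2 with Eed and Suz12, and Kdm6a and Kdm6b remove it. Acetyltransferases such as Ep300 and Crebbp open nucleosomes and histone deacetylases close them, DNA methyltransferases and the Tet oxidases set and remove cytosine methylation, and SWI/SNF and CHD complexes move nucleosomes with energy from ATP. In CD8+ T cells Ezh2, Dnmt3a and Tet2 are known for their part in the choice between effector and memory fates and in exhaustion.

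The deposited lists held 104575, 105796 and 100243 peaks for Res-shFabp7 and 84844, 82153 and 96310 for Res-ctrl, at 35 to 75 M read pairs of 76 bases per library. A relative measure of depth, the most frequent local background of a list, was 1.03, 0.868 and 0.959 for Res-shFabp7 and 0.709, 0.608 and 1.01 for Res-ctrl. Counts of peaks are therefore given from all peaks and also from equal numbers, the 82153 peaks per library that rank highest in −log10 q, which is as many as the shortest list holds; the part of depth in a difference was not tested beyond this. All 9 CD8 T cell markers examined, among them Cd3e, Cd8a and Cd8b1, had a region in all 6 libraries, with 179 to 194 peaks in all per Res-shFabp7 library and 156 to 186 per Res-ctrl library. All 4 CD4 and regulatory T cell markers, among them Cd4 and Foxp3, had such a region too, with 41 to 43 and 35 to 44 peaks. So did 2 of 3 NK cell, 3 of 5 myeloid, 3 of 5 B cell, 2 of 4 erythroid and 1 of 5 epithelial tumour markers. Such a region is therefore not particular to CD8 markers. Of 5 epithelial tumour markers, Krt8 and Sftpc had no region; the 5 together had 10 to 12 peaks with Res-shFabp7 and 5 to 7 with Res-ctrl, nearly all at Epcam, and the 5 B cell markers 16 to 21 and 10 to 14, with Ms4a1 at 0. Neither of these 2 sums overlapped between the groups, and their part in the results below was not tested. In bulk libraries a change in the share of cells that are open at a site and a change of opening within each cell cannot be told apart, and a region without a called peak is not shown to be closed.

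The promoters of these genes were mostly open and rich in CpG, and a few windows show the contrast in sequence. RefSeq (GRCm38.p6) gives 44 promoter windows of 300 bases, from 250 before to 50 after a start, for 32 of the 37 genes; Hdac1, Hdac3, Kdm6b, Arid2 and Chd3 have no window in the table. The windows below are shown because Tet2 had the most CpG of the 44, because Dnmt1 has starts both inside a region called in every library, 2 of its 3 windows with 1 of them shown, and without a peak, and because Hdac9 was the only gene of the 32 with no start in a region called in all 6 libraries. Capitals mark each CpG.
Tet2, chr3:133544341-133544640, minus strand, 57 CpG: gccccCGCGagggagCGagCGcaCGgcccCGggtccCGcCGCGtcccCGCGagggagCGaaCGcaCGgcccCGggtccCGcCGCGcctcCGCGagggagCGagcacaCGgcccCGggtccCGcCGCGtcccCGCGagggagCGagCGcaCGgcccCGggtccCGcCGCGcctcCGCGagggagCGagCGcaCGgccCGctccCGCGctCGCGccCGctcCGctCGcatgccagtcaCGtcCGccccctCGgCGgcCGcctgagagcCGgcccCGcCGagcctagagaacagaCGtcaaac
Dnmt1, chr9:20952574-20952873, minus strand, 33 CpG: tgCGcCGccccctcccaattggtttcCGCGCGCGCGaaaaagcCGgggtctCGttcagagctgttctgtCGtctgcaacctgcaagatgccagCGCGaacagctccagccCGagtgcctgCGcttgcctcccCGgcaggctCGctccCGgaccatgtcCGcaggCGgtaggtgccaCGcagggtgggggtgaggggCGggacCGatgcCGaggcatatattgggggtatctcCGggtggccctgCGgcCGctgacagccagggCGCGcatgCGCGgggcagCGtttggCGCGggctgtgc
Dnmt1, chr9:20959839-20960138, minus strand, 2 CpG: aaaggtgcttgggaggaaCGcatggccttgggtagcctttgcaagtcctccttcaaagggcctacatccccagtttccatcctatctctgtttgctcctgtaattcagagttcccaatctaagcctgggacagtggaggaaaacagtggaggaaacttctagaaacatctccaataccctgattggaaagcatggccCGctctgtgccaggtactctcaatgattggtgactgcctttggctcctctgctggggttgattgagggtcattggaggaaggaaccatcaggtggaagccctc
Hdac9, chr12:34528840-34529139, minus strand, 3 CpG: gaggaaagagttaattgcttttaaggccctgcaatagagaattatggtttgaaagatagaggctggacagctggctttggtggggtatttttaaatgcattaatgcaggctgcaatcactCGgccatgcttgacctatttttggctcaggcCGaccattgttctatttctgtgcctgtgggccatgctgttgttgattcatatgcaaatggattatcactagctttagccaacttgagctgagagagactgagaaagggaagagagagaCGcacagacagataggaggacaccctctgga
Hdac9, chr12:34917046-34917345, minus strand, 0 CpG: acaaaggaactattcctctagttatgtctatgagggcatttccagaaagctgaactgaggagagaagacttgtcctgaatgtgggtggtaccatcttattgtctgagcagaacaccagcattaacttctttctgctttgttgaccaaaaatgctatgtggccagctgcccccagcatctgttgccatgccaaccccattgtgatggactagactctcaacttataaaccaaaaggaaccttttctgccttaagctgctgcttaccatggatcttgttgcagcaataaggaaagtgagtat
The Tet2 window and the first Dnmt1 window lay in regions called in 6 of 6 libraries. The other 3 windows overlapped no peak in any library.

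A region called in all 6 libraries overlapped 38 of the 44 windows, at 31 of the 32 genes, against 48.9% of 21263 windows of all protein-coding genes. The median window of these genes held 28 CpG, against 13 over all windows. Among open windows the median was 29.5 at these genes and 22 over all genes. Of the windows of all genes, 5.90% of those with 0 to 4 CpG, 24.8% with 5 to 9, 67.0% with 10 to 19, 82.9% with 20 to 29 and 81.8% with 30 or more lay in such a region. For the chromatin genes the numbers were 0 of 3, 1 of 3, 10 of 10, 8 of 8 and 19 of 20 windows in the same order. The 1 CpG-rich window without a region in all 6 libraries was an inner start of Arid1a with 36 CpG, called in 2 Res-shFabp7 libraries at folds of 3.07 and 3.22. Fold is the authors' ratio of a peak's summit to its local background, and −log10 q is their measure of a peak's certainty; both describe peaks within a list. Open windows spanned a wide range of fold: the Suv39h1 promoter stood at 36.3, 34.2 and 35.5 with Res-shFabp7 and 34.2, 32.7 and 34.3 with Res-ctrl, and the Arid1b promoter, with 42 CpG, at 3.22, 3.60 and 3.29 and at 3.51, 3.20 and 3.83. Neither promoter separated the groups, whose values overlapped at both.

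**Figure D1:**
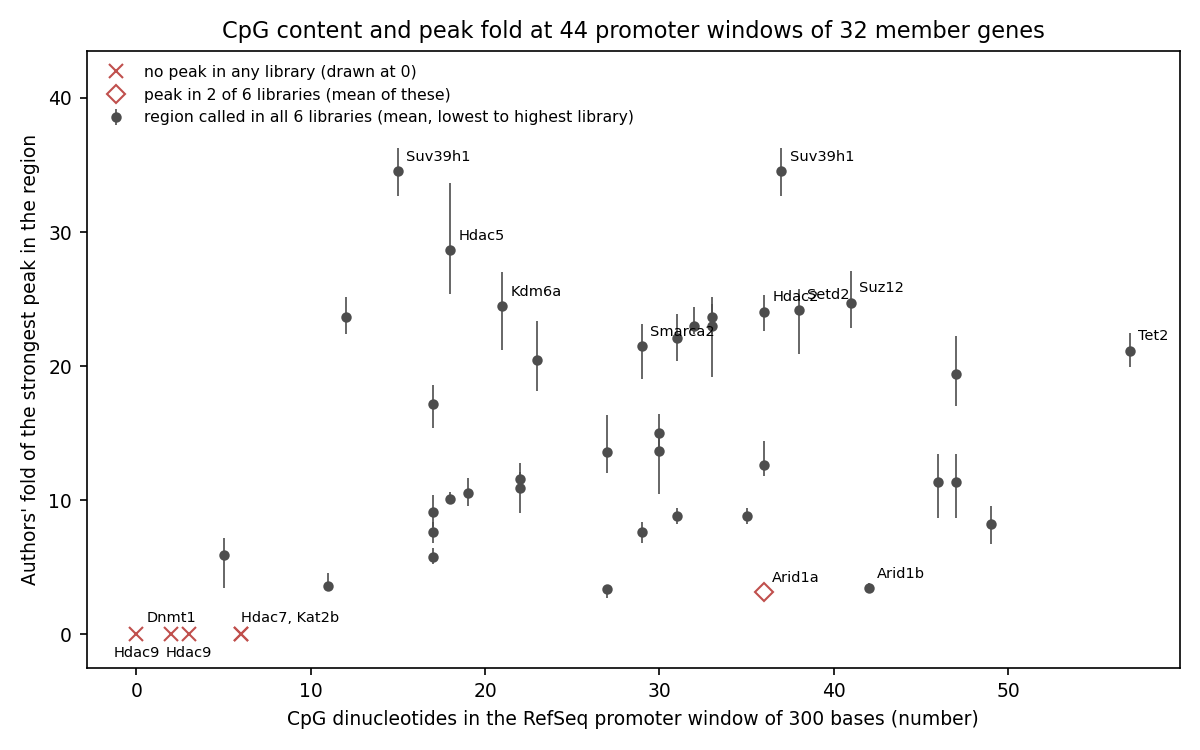
Number of CpG dinucleotides in each of 44 promoter windows of 300 bases (x axis) against the authors' fold of the strongest peak in the overlapping region (y axis, mean of the 6 libraries, with lines from the lowest to the highest). Crosses at 0 are windows without a peak in any library, all with 6 CpG or fewer, and the diamond is the Arid1a window called in 2 libraries.

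Called peaks at the 37 genes were more numerous with Res-shFabp7, in proportion to the longer lists. The Res-shFabp7 libraries held 522, 517 and 515 peaks at these genes and the Res-ctrl libraries 448, 416 and 498. The groups did not overlap, with means of 518 ± 3.61 (SD, n = 3) for Res-shFabp7 and 454 ± 41.3 (SD, n = 3) for Res-ctrl. They differed by 64 peaks or 14.1% of the Res-ctrl mean, where all peaks together differed by 18.0%. Per 1000 peaks of a list, the genes took 4.99, 4.89 and 5.14 with Res-shFabp7 and 5.28, 5.06 and 5.17 with Res-ctrl, and the groups overlapped. Among equal numbers of peaks these genes took 423, 403 and 399 against 427, 416 and 436, so that the difference of the means turned to -18 and the groups overlapped. Of the peaks at these genes, 79.9% to 81.9% of each list had their summit inside the gene body, against 59.5% to 60.0% of all peaks.

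**Figure D2:**
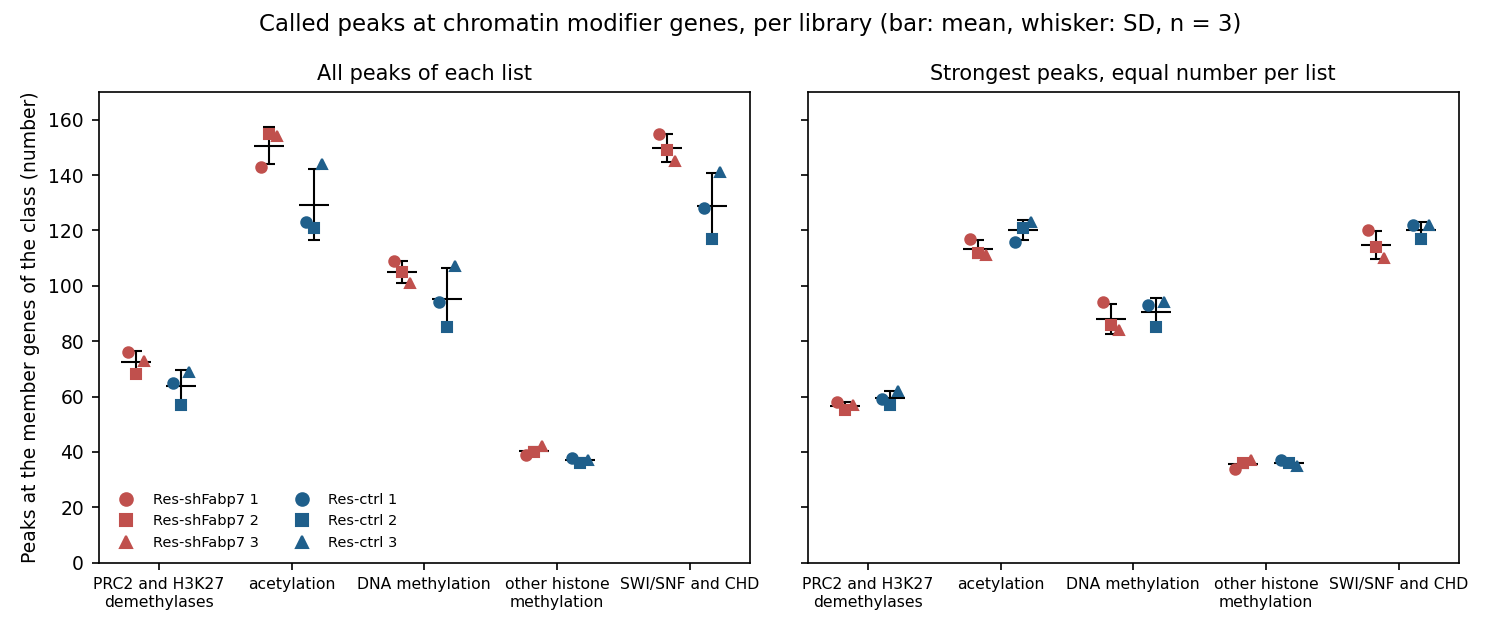
Number of called peaks (y axis) at the genes of each class (x axis) in each library, from all peaks (left) and from the 82153 strongest peaks of each list (right). Points are libraries, bars means and whiskers SD of 3 libraries; with all peaks the groups do not overlap for the other histone methylation genes (39 to 42 against 36 to 38) and the remodellers (145 to 155 against 117 to 141), and with equal numbers they overlap in every class.

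Every one of the 37 genes had at least 1 region called in all 6 libraries, against 63.9% of all protein-coding genes. Of 145 other genes of the same processes, described below, 141 (97.2%) did. At the 37 genes such regions were 294 of the 705, or 41.7%, where the background over all regions was 42.2%. Longer genes had more: the Spearman correlation over the 37 genes of gene length with the number of regions was 0.78 and with the number in all 6 libraries 0.57, a description of genes in the same libraries. Regions called in 3 of 3 libraries of Res-shFabp7 and 0 of 3 of Res-ctrl numbered 22, at 13 genes, or 3.12% (background 2.28%), and the reverse 3, at 3 genes, or 0.426% (background 0.155%). With equal numbers of peaks these were 5 of 556, or 0.899% (background 1.13%), and 9, or 1.62% (background 0.526%). Leaving out Res-ctrl replicate 1, 2 or 3 raised the 22 to 26, 23 or 42. Fewer libraries then have to lack a region, so this count can rise by the rule alone. The 42, of 686 regions, came without replicate 3, the library of its group with the highest relative depth. Over all regions the count rose as well, from 3065 to 4013, 3896 or 6987, the last of 130877. The part of depth in these rises was not tested.

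The 22 regions were weak ones: their lowest −log10 q over the 3 libraries that held them had a median of 4.17 and ran from 2.21 to 8.33, while the 294 regions of all 6 libraries had a median of 17.7 over their 6. Both sets were picked by where a peak was called, which itself rests on q, so this contrast is only a description. Of the 376 regions called in all 3 Res-shFabp7 libraries, Res-ctrl replicates 1, 2 and 3 also held 85.4%, 82.2% and 92.0%, close to the 84.9%, 83.2% and 92.5% of all regions. Of the 317 called in all 3 Res-ctrl libraries, the Res-shFabp7 libraries also held 95.9%, 95.6% and 97.5%, where over all regions they held 97.8%, 97.8% and 97.5%.

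**Figure D3:**
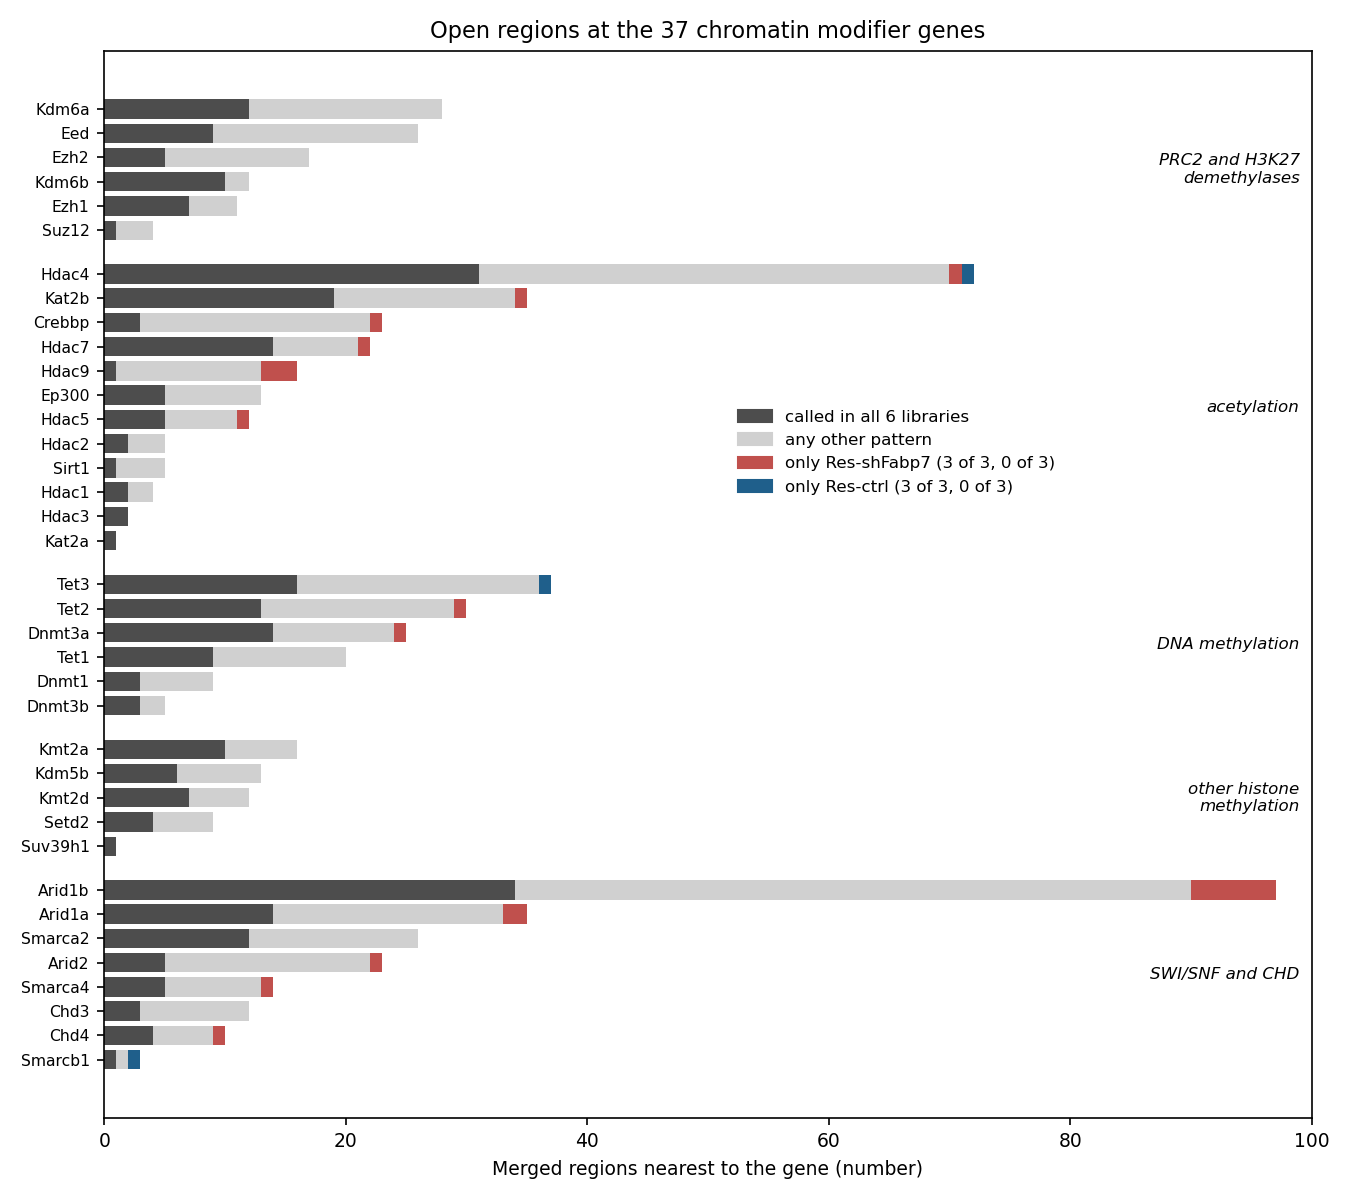
Number of merged regions (x axis) at each of the 37 genes (y axis), by class; dark grey are regions called in all 6 libraries, red those called only with Res-shFabp7, blue those called only with Res-ctrl and light grey all other patterns. Arid1b with 97 and Hdac4 with 72 regions stand apart, and Suv39h1 and Kat2a have 1 each.

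Counted gene by gene, 5 of the 37 genes (13.5%) had more peaks in every Res-shFabp7 library than in any Res-ctrl library (background 11.3% of 16425 genes with peaks), and 0 had fewer (background 0.536%). The 5 were Hdac9, Sirt1, Tet2, Setd2 and Arid1b. With equal numbers of peaks 0 had more (background 2.91%) and 2, Hdac4 and Tet3, had fewer (background 2.66%). Such counts of non-overlapping groups carry no p of their own here.

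The Polycomb and H3K27 demethylase genes held 98 regions, 44 of them in all 6 libraries, and none was called only with 1 group from all peaks. Their peaks numbered 76, 68 and 73 with Res-shFabp7 and 65, 57 and 69 with Res-ctrl, which overlapped. Kdm6a, an X-linked H3K27 demethylase, had the most regions of the class in all 6 libraries, 12 of 28, and 21, 18 and 20 against 20, 17 and 20 peaks. Its promoter region, chrX:18162161-18162910, was the strongest of the class by the lowest −log10 q over the 6 libraries, 269, with folds of 23.0, 25.6 and 26.5 against 23.7, 21.2 and 26.99. Kdm6b, the inducible demethylase, was the most densely covered of the 37 genes, with 50.3 regions per 100 kb of gene body, 10 of its 12 regions in all 6 libraries and 11, 11 and 11 against 11, 10 and 10 peaks. Neither demethylase separated the groups in its number of peaks.

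Ezh2, the catalytic subunit that rises in dividing T cells, had 5 of 17 regions in all 6 libraries and 13, 11 and 13 peaks with Res-shFabp7 against 11, 8 and 9 with Res-ctrl. The groups touched at 11 peaks. With equal numbers of peaks 1 Ezh2 region inside the gene, chr6:47560977-47561182, was called only with Res-ctrl, at folds of 5.02, 6.19 and 5.54; from all peaks 2 Res-shFabp7 libraries held it as well. Ezh1, the alternative catalytic subunit, had 7 of 11 regions in all 6 libraries and 9, 8 and 9 against 7, 7 and 8 peaks. Eed, which binds methylated H3K27, had 26 regions of which only 3 lay inside its gene body. Its strongest region, chr7:90022884-90023452, was 42291 bp outside the gene, with folds of 33.5, 33.9 and 34.7 against 33.9, 32.5 and 32.4, so most of what is counted at Eed rests on the nearest-gene rule. Suz12, the subunit that holds the complex together, had 4 regions, and only its promoter region was called in all 6 libraries.

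The acetylation genes held 210 regions, 86 in all 6 libraries. Only with Res-shFabp7 were 8 (3.81%, background 2.28%) and, in the reverse direction, 1 (0.476%, background 0.155%). With equal numbers of peaks the group-specific ones were 1 (0.641%, background 1.13%) and 2 (1.28%, background 0.526%). Peaks at the acetylation genes numbered 143, 155 and 154 against 123, 121 and 144. Hdac4, a class IIa deacetylase that shuttles out of the nucleus on calcium signals, carried the largest share, with 31 of its 72 regions in all 6 libraries. It had 49, 55 and 48 peaks with Res-shFabp7 and 45, 44 and 53 with Res-ctrl, which overlapped; with equal numbers the counts were 42, 39 and 37 against 44, 44 and 45, lower in every Res-shFabp7 library. The Hdac4 promoter region, chr1:92180055-92180703, was the strongest at any of the 37 genes by the lowest −log10 q over the 6 libraries, 411. Its pileup stood between the 99.87 and 99.95 percentile of common regions, and its folds were 22.6, 24.4 and 23.3 against 22.6, 22.8 and 22.4. Hdac4 also held 1 region of each group: chr1:91897211-91897367, 31553 bp outside the gene, at folds of 4.94, 4.28 and 5.10 only with Res-shFabp7, and chr1:92202910-92203215, 7365 bp outside on the other side, at 4.08, 4.94 and 4.99 only with Res-ctrl. Neither of the pair was specific again with equal numbers of peaks. With equal numbers, 1 other Hdac4 region was called only with Res-shFabp7, chr1:91941569-91941807, and 2 only with Res-ctrl, chr1:92052111-92052237 and chr1:92137244-92137373, all inside the gene and each held by 1 or 2 libraries of the other group when all peaks were used.

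Hdac9, another class IIa deacetylase, showed a wide gap in peak number, and its regions were weak ones. The Res-shFabp7 libraries had 8, 12 and 10 peaks at Hdac9 and the Res-ctrl libraries 1, 3 and 5. The groups did not overlap. With equal numbers these became 4, 4 and 3 against 1, 3 and 4, which overlapped. Over a gene body of 869516 bp it held 1.73 regions per 100 kb, and only 1 of its 16 regions, chr12:34248820-34249032, was called in all 6 libraries, at a lowest −log10 q of 4.87 and folds of 10.4, 11.2 and 5.10 against 6.44, 6.22 and 10.5. The 3 Hdac9 regions only with Res-shFabp7 were chr12:34333003-34333269 at folds of 5.92, 5.35 and 5.10, chr12:34432580-34432737 at 4.44, 4.82 and 4.08, and chr12:34497804-34498131 at 4.94, 7.49 and 5.10. All 3 lay inside the gene, between 30902 and 195804 bp from the nearest RefSeq start, and none was specific with equal numbers. Both Hdac9 promoter windows printed above were without a peak in any library.

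Among the other deacetylase genes, only Sirt1 had peak counts that did not overlap between the groups. Hdac7, the class IIa deacetylase of thymocytes, had 14 of 22 regions in all 6 libraries and 23, 20 and 21 against 18, 19 and 20 peaks, which met at 20. Its 1 region only with Res-shFabp7, chr15:97815590-97815929, had folds of 6.00, 4.21 and 5.05. Hdac5 had 5 of 12 regions in all 6 libraries, 9, 7 and 9 against 9, 10 and 8 peaks, and 1 region only with Res-shFabp7, chr11:102201419-102201765, at folds of 5.43, 5.35 and 4.08. The class I deacetylases Hdac1, Hdac2 and Hdac3 each had 2 regions in all 6 libraries, of 4, 5 and 2. Sirt1, a deacetylase that needs NAD, had 3, 3 and 3 peaks against 2, 1 and 2. The Sirt1 counts did not overlap, but with equal numbers they were 2, 2 and 2 against 2, 1 and 2.

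Among the acetyltransferase genes, Kat2b had the most regions in all 6 libraries, 19 of 35, with 26, 25 and 28 against 27, 22 and 27 peaks. Its 1 region only with Res-shFabp7, chr17:53617665-53617790, had folds of 4.94, 7.49 and 6.12. Crebbp, a coactivator with a bromodomain, had 10, 13 and 15 against 7, 7 and 11 peaks but only 3 of 23 regions in all 6 libraries; its 1 region only with Res-shFabp7, chr16:4201744-4202131, had folds of 6.39, 4.72 and 5.32. Its close relative Ep300 had 5 of 13 regions in all 6 libraries and 6, 11 and 10 against 7, 6 and 10 peaks, with none called only with 1 group. Kat2a had 1 region, at its promoter, called in every library.

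The DNA methylation genes held 126 regions, 58 of them in all 6 libraries. Their regions only with Res-shFabp7 were 2 (1.59%, background 2.28%) and those of the reverse pattern 1 (0.794%, background 0.155%). Their peaks numbered 109, 105 and 101 against 94, 85 and 107, which overlapped. Tet3, a 5-methylcytosine oxidase, had the most in all 6 libraries, 16 of 37. Tet3 did not have more peaks with Res-shFabp7: 30, 27 and 26 against 33, 26 and 29, and with equal numbers 24, 22 and 22 against 32, 26 and 26, lower in every Res-shFabp7 library. Its region called only with Res-ctrl, chr6:83412084-83412197, had folds of 3.59, 3.85 and 3.93 and pileups of 31, 35 and 51. It was specific again with equal numbers of peaks, but it lay 128 bp from a region called in all 6 libraries. With equal numbers a further Tet3 region, chr6:83427676-83427797, was called only with Res-ctrl, at folds of 4.99, 4.76 and 5.72; 2 Res-shFabp7 libraries held it when all peaks were used.

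Tet2, the oxidase most often lost in T cell and myeloid malignancy, had 13 of 30 regions in all 6 libraries. Its peaks numbered 22, 21 and 22 with Res-shFabp7 and 18, 18 and 20 with Res-ctrl, which did not overlap, and 21, 17 and 19 against 18, 18 and 17 with equal numbers, which did. The Tet2 region only with Res-shFabp7, chr3:133506336-133506528, was inside the gene with folds of 8.29, 4.15 and 7.63. The Tet2 promoter region was alike in the groups, with folds of 19.9, 21.5 and 21.3 against 21.6, 20.03 and 22.5. Tet1, the third oxidase, had 9 of 20 regions in all 6 libraries and 15, 17 and 12 against 14, 12 and 16 peaks.

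Dnmt3a, the de novo methyltransferase, had 14 of 25 regions in all 6 libraries and 31, 28 and 29 against 21, 23 and 29 peaks, which met at 29. With equal numbers its counts were 26, 24 and 22 against 21, 23 and 27. Its region only with Res-shFabp7, chr12:3886293-3886503, had folds of 4.03, 6.03 and 4.62. Dnmt1, the maintenance methyltransferase, had 6, 7 and 5 against 3, 3 and 7 peaks, and its promoter region, chr9:20952328-20953121, was the strongest of the class by lowest −log10 q, 147, though not by fold, at 22.4, 22.8 and 22.6 against 25.2, 23.8 and 25.1. Here the Res-ctrl values were the higher ones in all 3 libraries, but its height on a common scale, the normal score of its rank in each library, differed by -0.14 (SE 0.0839, limma adjusted p 0.481), which did not pass. Dnmt3b, the second de novo enzyme, had 3 of 5 regions in all 6 libraries.

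The other histone methylation genes had the highest share of regions called in all 6 libraries of the 5 classes, 28 of 51 (54.9%). None was called only with 1 group, with all peaks or with equal numbers. Their peaks numbered 39, 40 and 42 against 38, 36 and 37, which did not overlap. With equal numbers these were 34, 36 and 37 against 37, 36 and 35, which did. Kmt2a, a writer of H3K4 methylation, had 10 of 16 regions in all 6 libraries and 12, 13 and 14 against 12, 12 and 11 peaks. Kmt2d, which writes H3K4 methylation at enhancers, had 7 of 12 and 9, 12 and 11 against 10, 8 and 12. Setd2, the H3K36 trimethylase, had 7, 7 and 6 against 5, 5 and 5 peaks, which did not overlap, and 5, 7 and 5 against 5, 5 and 5 with equal numbers. Suv39h1, a writer of H3K9 methylation, had 1 region, chrX:8074377-8075089, over its promoter, which was the strongest of the class by lowest −log10 q, 201, and was called in every library. Kdm5b, an H3K4 demethylase, had 6 of 13 regions in all 6 libraries and 10, 7 and 10 against 10, 10 and 8 peaks.

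The remodeller genes held 220 regions, of which 78, or 35.5%, were in all 6 libraries. From all peaks, 12 (5.45%, against a background of 2.28%) were specific to Res-shFabp7 and 1 (0.455%, background 0.155%) showed the reverse. With equal numbers of peaks there were 4 of each, or 2.22% of 180. The background was then 1.13% for Res-shFabp7 and 0.526% for Res-ctrl. Peaks at the remodeller genes numbered 155, 149 and 145 against 128, 117 and 141. Arid1b, a DNA-binding subunit of the BAF form of SWI/SNF, held 7 of the 12 and the most regions of any of the 37 genes, 97, with 34 in all 6 libraries. The Arid1b counts were 70, 64 and 64 with Res-shFabp7 and 58, 51 and 61 with Res-ctrl, which did not overlap, and 58, 51 and 51 against 57, 51 and 53 with equal numbers, which did. Of the 7, 3 were specific again with equal numbers: chr17:5160221-5160435 at folds of 6.86, 8.99 and 6.12, chr17:5164970-5165099 at 4.40, 4.91 and 5.42, and chr17:5244743-5244891 at 6.00, 8.50 and 6.61. The second of these lay 109 bp from a region that the other group held. The other 4 had folds between 3.75 and 9.70, the highest in Res-shFabp7 replicate 3 at chr17:4968937-4969059, where the other 2 libraries stood at 4.44 and 3.75. With equal numbers 1 Arid1b region, chr17:5024432-5024650, was called only with Res-ctrl, at folds of 5.85, 4.97 and 7.16; 2 Res-shFabp7 libraries held it when all peaks were used.

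Smarca4, which encodes the ATPase Brg1, gave the fourth region specific to Res-shFabp7 in both counts, chr9:21679855-21680136, inside the gene with folds of 6.50, 6.96 and 7.34 and pileups of 13, 12 and 14. The gene had 5 of 14 regions in all 6 libraries and 7, 9 and 11 against 6, 6 and 8 peaks. Smarca2, the alternative ATPase Brm, had 12 of 26 regions in all 6 libraries and 18, 23 and 18 against 18, 15 and 18 peaks. The Smarca2 promoter region, chr19:26604630-26605282, was the strongest of the class by lowest −log10 q, 201, though not by fold, with folds of 23.1, 21.6 and 22.9 against 21.1, 19.1 and 21.1. With equal numbers 1 region inside Smarca2, chr19:26711387-26711537, was called only with Res-ctrl, at folds of 4.68, 5.42 and 5.48, and 2 Res-shFabp7 libraries held it when all peaks were used.

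Arid1a, the other BAF DNA-binding subunit, had 14 of 35 regions in all 6 libraries and 24, 22 and 24 against 20, 17 and 23 peaks, which overlapped. Of its 2 regions only with Res-shFabp7, chr4:133752893-133753113 lay 925 bp inside from a start and had the highest pileups of the 22, at 68, 53 and 55, but low folds of 2.73, 2.25 and 2.22. The other, chr4:133730234-133730400, had folds of 3.71, 3.17 and 3.89 and lay 77 bp from a region that Res-ctrl held. Arid2, a subunit of the PBAF form, had 5 of 23 regions in all 6 libraries, 18, 16 and 13 against 12, 11 and 14 peaks, and 1 region only with Res-shFabp7, chr15:96373317-96373448, at folds of 5.43, 4.28 and 5.10. Chd4, the ATPase of the NuRD complex, had 4 of 10 regions in all 6 libraries, 7, 8 and 7 against 7, 6 and 6 peaks, and 1 region only with Res-shFabp7, chr6:125109117-125109237, at folds of 3.55, 3.68 and 5.61. Chd3, its relative, had 3 of 12 regions in all 6 libraries and 8, 5 and 6 against 4, 6 and 7 peaks; with equal numbers chr11:69375718-69375930, 6267 bp outside the gene, was called only with Res-ctrl, at folds of 5.79, 7.996 and 4.86.

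Smarcb1, a core SWI/SNF subunit lost in rhabdoid tumours, had 3 regions, 1 in all 6 libraries and 1 only with Res-ctrl. Its peaks numbered 3, 2 and 2 with Res-shFabp7 and 3, 5 and 4 with Res-ctrl, which met at 3. The region only with Res-ctrl, chr10:75921836-75921916, had folds of 5.48, 5.22 and 4.46 and pileups of 22, 18 and 26, was specific again with equal numbers, and began 69 bp from the region called in all 6 libraries. It overlapped the far end of the promoter window, whose first 29 bases, in capitals, lie in it.
Smarcb1, chr10:75921565-75921864, minus strand: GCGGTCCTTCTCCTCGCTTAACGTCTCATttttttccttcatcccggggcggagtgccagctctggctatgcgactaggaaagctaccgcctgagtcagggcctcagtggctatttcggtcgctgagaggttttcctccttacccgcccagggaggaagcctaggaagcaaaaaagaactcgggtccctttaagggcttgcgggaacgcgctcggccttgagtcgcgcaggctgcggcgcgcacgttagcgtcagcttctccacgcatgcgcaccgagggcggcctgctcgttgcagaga
The region of all 6 libraries over the rest of this window, chr10:75920926-75921766, had folds of 12.7, 14.1 and 13.9 with Res-shFabp7 and 12.0, 12.5 and 16.4 with Res-ctrl, which overlapped. All 3 regions called only with Res-ctrl, at Smarcb1, Tet3 and Hdac4, lay within 200 bp of a region that Res-shFabp7 libraries held too, and none was left when peaks within 200 bp were merged; of the 22 only with Res-shFabp7, 3 lay so close and 19 were left.

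**Figure D4:**
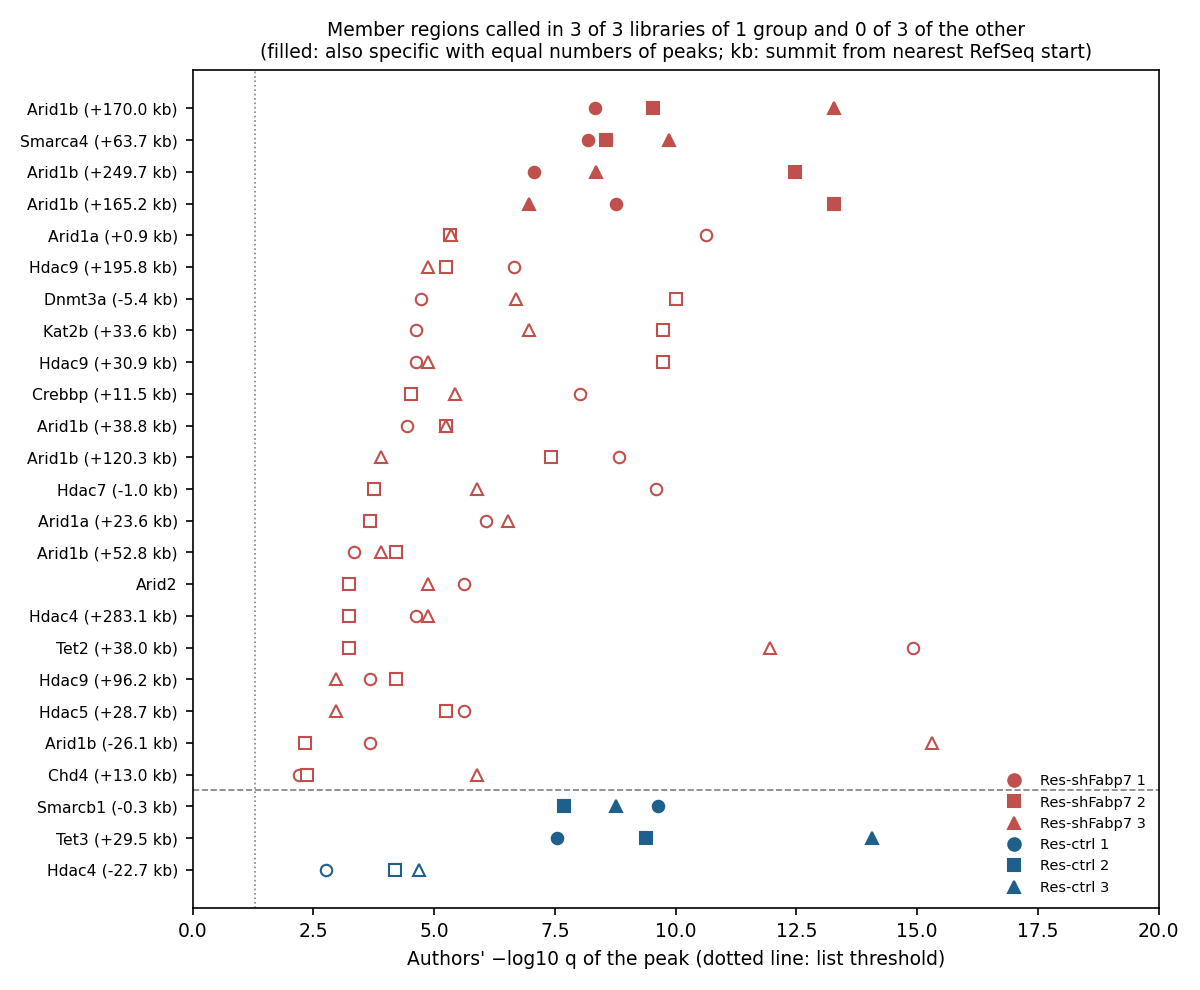
The authors' −log10 q of the peaks (x axis) at the 25 regions of these genes called in 3 of 3 libraries of 1 group and 0 of 3 of the other (y axis, with the distance of the summit from the nearest RefSeq start). Red marks are Res-shFabp7 and blue Res-ctrl libraries; filled marks are the 6 regions, 3 of Arid1b and 1 each of Smarca4, Smarcb1 and Tet3, that stayed specific to their group among equal numbers.

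The height of the regions called in all 6 libraries was compared on a common scale, since pileups follow depth. Each pileup was replaced by the normal score of its rank among the 56610 common regions of its library, which puts the median region at 0 in every library, and limma was fitted to all 56610. In limma 0 of the 294 regions at the chromatin genes were higher (background 0.00177%, which is 1 region) and 0 lower (background 0%) with Res-shFabp7 at an adjusted p under 0.05. At an unadjusted p under 0.05, 20 were higher and 20 lower, together 13.6% of the 294, against 15.7% of all common regions. The median difference was -0.01 over the 294 and -0.01 over all. The smallest adjusted p of a region at these genes was 0.105 in limma.

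The largest of these differences was at Tet2. The region chr3:133582163-133582471, 37136 bp outside the gene, had pileups of 27, 23 and 28 with Res-shFabp7 and 9, 8 and 12 with Res-ctrl. It stood at the 26.3, 24.3 and 29.98 percentile of common regions with Res-shFabp7 and at the 5.45, 4.31 and 3.66 percentile with Res-ctrl. The groups lay far apart, at a difference of 1.09 normal scores (SE 0.0917, limma adjusted p 0.105), which did not pass. A second Tet2 region, chr3:133626457-133626952, 81673 bp outside the gene, had pileups of 59, 47 and 57 against 23, 20 and 40 and a difference of 0.49 (SE 0.0963, limma adjusted p 0.144). The Arid1b region chr17:5125112-5125704, inside the gene, had pileups of 26, 23 and 28 against 11, 10 and 16 and a difference of 0.64 (SE 0.0833, limma adjusted p 0.105). At all 3 regions each Res-shFabp7 library ranked above each Res-ctrl library. The 3 were picked by smallest p on these same scores, so this separation follows largely from the choice.

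In the other direction the smallest p belonged to Hdac4, Dnmt3a and Dnmt3b. The Hdac4 region chr1:92006743-92007000, inside the gene, stood at the 42.6, 48.7 and 43.2 percentile with Res-shFabp7 and the 60.1, 62.4 and 59.0 percentile with Res-ctrl, a difference of -0.40 (SE 0.0828, limma adjusted p 0.153). The Dnmt3a region chr12:3852642-3852793 stood at 19.8, 16.8 and 18.1 against 33.8, 35.2 and 24.8, a difference of -0.42 (SE 0.106, limma adjusted p 0.184). The Dnmt3b promoter region, chr2:153649181-153650412, stood at 60.7, 52.5 and 44.3 against 70.7, 69.3 and 67.1, a difference of -0.43 (SE 0.12, limma adjusted p 0.201). In each of these the Res-ctrl libraries ranked higher without overlap, which again follows largely from the choice by p. None passed the threshold.

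**Figure D5:**
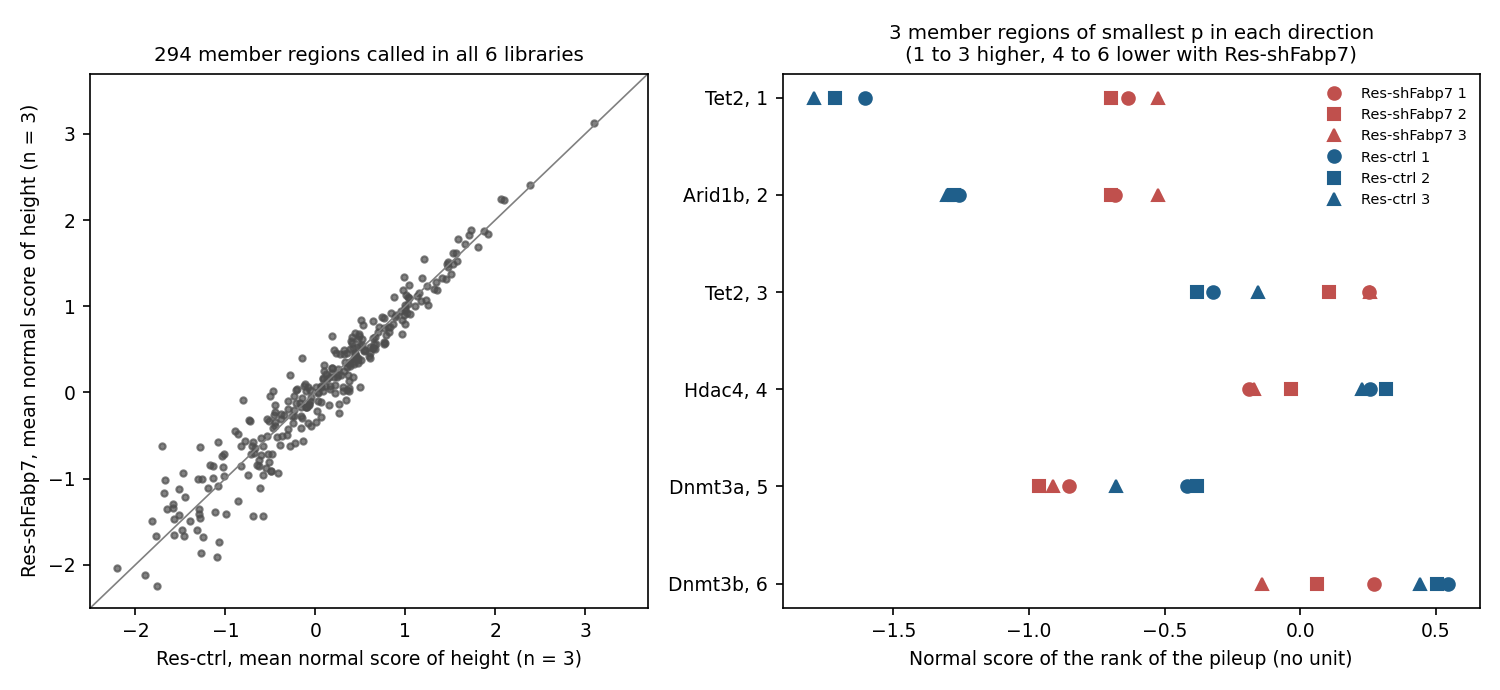
Left, mean normal score of the height in 3 Res-shFabp7 libraries (y axis) against that in 3 Res-ctrl libraries (x axis) for the 294 regions of the chromatin genes called in all 6 libraries, with the line of equality. Right, the score in each library (x axis) for the 3 regions of smallest p in each direction. Tet2, Arid1b and Tet2 were higher and Hdac4, Dnmt3a and Dnmt3b lower with Res-shFabp7. The groups are apart in all 6, at limma adjusted p of 0.105 to 0.201. This separation follows largely from the choice by p.

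By class, the unadjusted p was under 0.05 for 4 of the 44 Polycomb and demethylase regions (2 higher, 2 lower), 9 of 86 acetylation regions (4 and 5), 11 of 58 DNA methylation regions (5 and 6), 7 of 28 histone methylation regions (4 and 3) and 9 of 78 remodeller regions (5 and 4). These shares ran from 9.09% for the Polycomb and demethylase regions to 25.0% for the histone methylation regions, against 15.7% of all common regions. No class leaned to 1 side by more than 1 region. In height the 294 regions were ordinary: their median stood at the 53.8 to 56.8 percentile of common regions, and 7.82% to 8.84% of them were above the 90th percentile of a library.

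Another 145 genes of the same processes, such as further Polycomb, NuRD and SWI/SNF subunits, were counted the same way. All 145 matched the gene table and held 1745 regions, of which 742 (42.5%) were in all 6 libraries, 32 (1.83%) only with Res-shFabp7 and 4 (0.229%) the reverse. With equal numbers of peaks these were 14 (0.997%) and 5 (0.356%) of 1404, where the 37 genes had 5 and 9 of 556; the difference between the gene lists was not tested. The background over all regions was 2.28% and 0.155%, and with equal numbers 1.13% and 0.526%. By class, regions only with Res-shFabp7 numbered 9 of 378 (2.38%) for Polycomb genes, 4 of them at the PRC2 cofactor Jarid2. Acetylation genes had 10 of 421 (2.38%), 3 of them at the acetyltransferase Kat6b. DNA methylation genes had 1 of 111 (0.901%), histone methylation genes 4 of 394 (1.02%) and remodeller genes 8 of 441 (1.81%). More peaks in every Res-shFabp7 library were found at 18 of the 145 genes (12.4%, background 11.3%) and fewer at 1 (background 0.536%). In limma 0 of the 742 common regions passed in height, and 54 were higher and 51 lower at an unadjusted p under 0.05.

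Few regions lay near the distance limit, but the nearest-gene rule bore on more of them. Of the 705 regions, 567 lay inside the gene body, and a limit of 20 kb left 649. Inside the gene were 2 of 13 regions at Ep300, 0 of 3 at Smarcb1, 5 of 12 at Chd3, 17 of 30 at Tet2 and 16 of 26 at Smarca2. The region farthest inside the limit of 100 kb belonged to Arid1b, at 88115 bp, with 1 Res-shFabp7 library at a fold of 3.42. Just outside it lay a region nearest to Hdac4 at 103545 bp, held by 3 Res-shFabp7 and 2 Res-ctrl libraries at folds of 12.3, 11.2 and 5.61 and of 5.60 and 9.47.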

How the data were processed

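Peak lists of 6 ATAC-seq libraries, 1 per library, were used as the authors deposited them. Bowtie 1.1.2, MACS2 2.2.7.1, cutadapt 2.8, Trim Galore 0.6.5 and build mm10 are named (per the submitters' processing notes); read shifting, duplicate treatment and the mode of MACS2 were not given in the sources used here. Each peak has, per the file headers, its position, summit, pileup signal, fold ratio, and p-value and q-value as −log10. Library depth is given by the labels only as a range.

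Peaks overlapping by 1 bp were merged into regions, and each was assigned to the nearest gene of a RefSeq table (GRCm38.p6, the primary assembly of mm10) without exons, so exon and intron are not given. At 13 peaks of these genes 2 gene bodies tied. Libraries shared 0.487% to 0.641% of the shorter list as identical peaks, so none was deposited in duplicate. Heights were tested with limma 3.58.1 in R 4.3.3 with Benjamini-Hochberg adjustment, tested first on simulated data; other steps used Python 3.11.15. A single region held by 3 of 3 against 0 of 3 libraries cannot reach an exact p under 0.1 and was not tested. Alternatives were q of 0.01 or 0.001, equal numbers of peaks, merging across 200 bp, a gene distance of 20 kb, other assignment rules, leaving out each library and a replicate block. For heights, quantile-normalised log2 pileup and fold in place of pileup were also run.

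The members and lists were chosen with earlier results of these data known. Every gene is named; values in every library are given for genes with a region of 1 group only, for the 2 genes per class with most regions in all 6 libraries, for the 3 regions of smallest p per direction, and for the strongest region of each class.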

Additional observations from a re-analysis of the deposited data

How the results depend on the processing

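Using equal numbers of peaks, which puts a stricter cut on the longer lists, changed most. The difference in peaks at the chromatin genes went from 64 to -18, regions only with Res-shFabp7 from 22 to 5, regions only with Res-ctrl from 3 to 9, genes with more peaks in every Res-shFabp7 library from 5 to 0 and genes with fewer from 0 to 2. Merging peaks across gaps of up to 200 bp left 0 regions only with Res-ctrl. Leaving out 1 library at a time gave 23 to 42 regions only with Res-shFabp7, the 42 without Res-ctrl replicate 3, and 4 to 6 only with Res-ctrl. Over all regions these counts were 3896 to 6987 and 416 to 758, against 3065 and 208 with every library kept. With a library left out the rule asks for fewer libraries, so these counts can rise by the rule alone. The limma count of regions past the threshold in height was 0 in both directions under every alternative run. The replicate numbers did not pair the libraries: deviations of libraries of the same number correlated at -0.02, 0.02 and -0.02. With the replicate block 0 regions passed in limma, and the smallest adjusted p at these genes was 0.246. The smallest limma adjusted p came nearer the threshold with quantile-normalised log2 pileups, 0.0746, and at q under 0.001, 0.0976, against 0.105 in the main fit. In the other alternatives it was 0.106 to 0.251. Depth limits the weak regions: one that is missing from a shallower list may only be uncalled there.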

Other observations

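Short motifs were searched on both strands of the 44 promoter windows, as a description of letters and not of binding. The ETS letters CCGGAAG stood in 1 of the 44 (2.27%), the window of Smarca2, against 11.6% of 21263 windows of all protein-coding genes and 20.9% of the open ones. The AP-1 letters TGANTCA stood in 5 (11.4%), at Smarcb1, Smarca2, Hdac7, Hdac9 and Kat2b, against 6.99% of all and 4.28% of the open windows. The RUNX letters TGTGGT stood in 13.6% against 15.0% and 11.8%, and the CRE letters TGACGTCA in 0 against 2.23% and 3.61%. The SP/KLF letters GGGCGG stood in 70.5% against 46.2% and 68.8%. The NRF1 motif stood in 2 (4.55%), the open windows of Dnmt1, against 1.33% and 2.45%. Among the 38 open windows of these genes, ETS stood in 1, AP-1 in 4, RUNX in 5, CRE in 0, SP/KLF in 30 and NRF1 in 2. Windows of 1 gene can overlap, so these are not independent counts. The Smarca2 window is shown because it holds both the ETS letters (read on the minus strand) and the AP-1 letters, in capitals.
Smarca2, chr19:26604910-26605209, plus strand: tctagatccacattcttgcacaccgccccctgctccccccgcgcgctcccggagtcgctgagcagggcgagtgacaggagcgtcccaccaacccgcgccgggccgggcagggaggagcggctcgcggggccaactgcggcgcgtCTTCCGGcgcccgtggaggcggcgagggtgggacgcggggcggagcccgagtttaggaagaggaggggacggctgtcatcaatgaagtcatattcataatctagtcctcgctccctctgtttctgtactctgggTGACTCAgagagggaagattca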
